A study of Homo sapiens with 6 samples.

Results

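Amino acid transporter genes of the SLC1A, SLC3A, SLC7A, SLC36A, SLC38A and SLC43A families, with 7 genes of the SLC6A family, were sought by symbol in the annotation that pairs the array's features with genes. Of the 14884 genes tested, 1 had such a symbol, SLC38A12. The other 47 of the 48 human genes in the RefSeq table whose symbols fit the same pattern had no feature paired with them in the annotation used, so carriers such as SLC7A11, SLC7A5, SLC3A2, SLC1A5 and SLC38A2 were not analysed here. The measurements below are therefore those of SLC38A12 and do not describe amino acid transporters as a class.

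The data were 6 Affymetrix arrays of total RNA from HCT-8, a human colon cancer cell line grown in DMEM. One group of 3 arrays was labelled TRIB3-shRNA, for cells carrying a plasmid for a short hairpin RNA against TRIB3. The other group of 3 was labelled Control-shRNA, for cells carrying a control hairpin plasmid. In both groups hygromycin selection began 24 hours after transfection and lasted 14 days, and uncloned pools were used, so each group is a mixture of transfectants. The titles number the arrays 1 to 3, and nothing in the labels says that the numbers stand for separate cultures, so the p-values reflect how far these particular arrays spread, which may be technical.

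SLC38A12 was formerly named TMEM104, for transmembrane protein. The newer symbol places it in the SLC38 family, whose studied members carry neutral amino acids such as glutamine and alanine across membranes, many of them together with sodium. Cells under amino acid shortage activate the transcription factor ATF4, which induces genes of amino acid uptake and synthesis, and TRIB3 is itself a target of ATF4. The arrays measure transcript signal, and transport was not measured.

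The targeted gene was examined first. The TRIB3 signal was 2.09-fold higher in the arrays labelled TRIB3-shRNA (limma adjusted p = 0.0041), against the sense of the label, so each direction given here is that of the library labels only. Of the colon epithelial markers, 9 of 12 had a named feature, and all 9 had a mean signal above the median of all genes, among them EPCAM, KRT19 and CDX2. Of these 9, 2 were called higher in the arrays labelled TRIB3-shRNA, KRT20 (by 2.27 log2 units) and CDX1 (by 0.69 log2 units), and 0 were called lower. That is 22.2% beside 9.64% of all genes called. VIL1 differed by -0.44 with groups that did not overlap (adjusted p = 0.0631) and KRT8 by -0.04, and neither passed the test. The remaining markers, EPCAM, KRT19, CDX2, GPA33 and KRT18, were 0.16 to 0.46 higher and did not pass either. Of these, EPCAM, GPA33 and KRT18 also had groups that did not overlap. Such groups were found for 32.0% of all genes in either direction. The list's median difference was 0.33 beside 0.04 for all genes. The summed level of the list, as the mean of its members, ran from 8.53 to 8.59 in those arrays and from 8.04 to 8.28 in the control arrays, and its part in the results was not tested. Of the other cell types' markers, 2 of 7 fibroblast, 3 of 7 leukocyte and 3 of 5 endothelial genes had a named feature. Both fibroblast genes, 2 leukocyte genes and 2 endothelial genes lay below the 25th percentile of all genes, and CD68 lay above the median.

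SLC38A12 was measured by 1 feature, transcript cluster 16837646, paired with RefSeq transcript NM_017728 of a protein-coding gene on chromosome 17. Its log2 signal read 8.16, 8.28 and 7.94 under the TRIB3-shRNA label and 7.73, 7.57 and 7.80 under the Control-shRNA label. The groups did not overlap: the TRIB3-shRNA array was the higher in 9 of 9 pairings of an array from each group. The lowest array labelled TRIB3-shRNA, number 3, and the highest control array, also number 3, were 0.14 apart on the log2 scale.

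The mean log2 signal of SLC38A12 was 8.13 ± 0.17 (SD, n = 3) with the TRIB3 hairpin label and 7.70 ± 0.12 (SD, n = 3) with the control label. These means differed by 0.43 log2 units (SE 0.14, 95% interval 0.11 to 0.74), or 1.34-fold. In limma's moderated test it did not pass the threshold of 0.05 after Benjamini-Hochberg adjustment over all genes (adjusted p = 0.0849, unadjusted p = 0.0137). The groups were thus separate in SLC38A12, but 2398 of 14884 genes had a smaller p-value. The count of members called was 0 higher and 0 lower, where 9.64% of all genes were called (1435 genes, 3.25% higher and 6.39% lower). With 1 member, that count cannot be set against the background as a share. Groups that did not overlap were found for 32.0% of all genes and, with the arrays labelled TRIB3-shRNA on the higher side as for SLC38A12, for 16.4%.

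**Figure D1:**
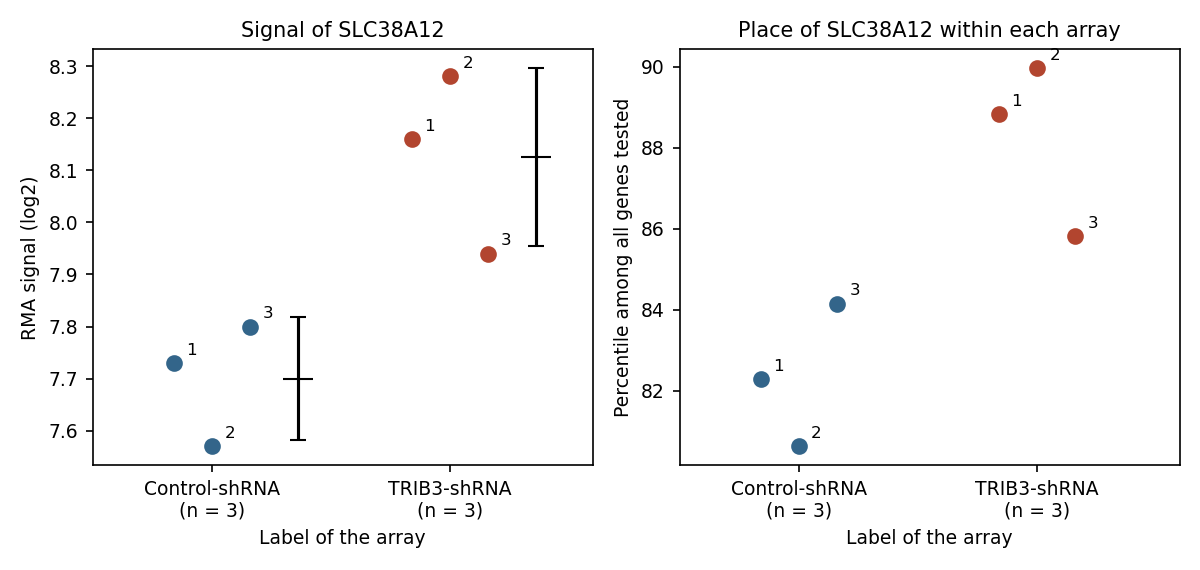
SLC38A12 in each of the 6 arrays, as RMA signal on the log2 scale (left, with the mean and SD of each group of 3 arrays as black bars) and as the percentile of that signal among 14884 genes of the same array (right). Numbers beside the points are the replicate numbers. The arrays labelled TRIB3-shRNA lie above the control arrays on both axes, and between the groups the arrays numbered 3 lie closest.

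The place of SLC38A12 within each array was also described, because a percentile does not depend on how arrays are scaled. Its signal was brighter than that of 85.8% to 90.0% of genes in the arrays labelled TRIB3-shRNA and than that of 80.6% to 84.2% in the control arrays. These ranges did not overlap. A percentile also depends on the probes of each feature, so it shows that SLC38A12 was read well above the dim end of the arrays and is no measure of its transcript number. The gene's lowest signal, 7.57, exceeded the 75th percentile of each array (7.05 to 7.24).

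The separation of SLC38A12 was narrowest between the arrays numbered 3 of each group, and this closest pair was common. Of the 4762 genes whose groups did not overlap, 2129 (44.7%) had the same pair of arrays closest together, and each of the other 8 pairs was closest for 4.72% to 8.99%. Array TRIB3-shRNA 3 was 0.03 above the mean of all 6 arrays in SLC38A12, while the other two of its group were 0.24 and 0.37 above. Control array 3 was 0.11 below that mean, and the other two control arrays were 0.18 and 0.34 below.

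Leaving out each array in turn changed the call for SLC38A12 in 1 of 6 cases: without TRIB3-shRNA replicate 3 the difference was 0.52 and passed the test (limma adjusted p = 0.0408). Without TRIB3-shRNA replicate 2 the difference was 0.35 (adjusted p = 0.239), and without Control-shRNA replicate 2 it was 0.36 (adjusted p = 0.268), and both of these 95% intervals reached just below 0. Over 18 alternatives, the difference stayed positive, from 0.35 to 0.57, and the adjusted p ran from 0.016 to 0.268. It passed the test under 4 of them, that without TRIB3-shRNA replicate 3 and others given with the processing alternatives.

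**Figure D2:**
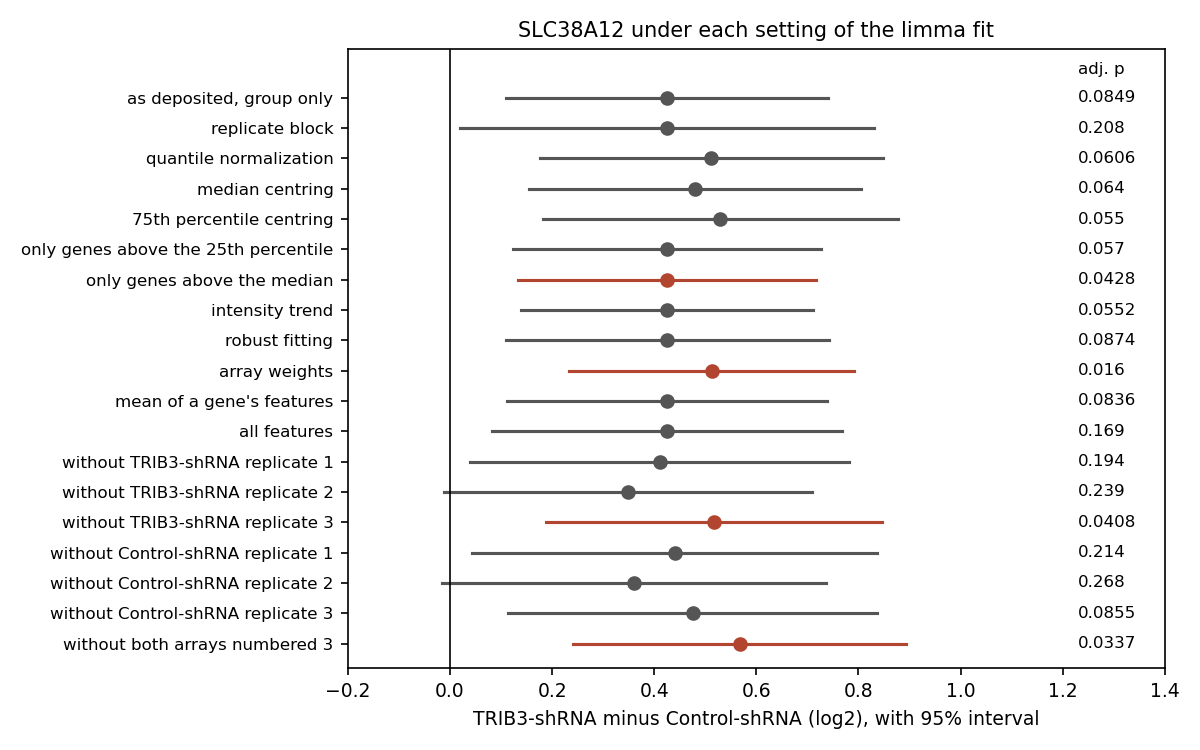
Difference of SLC38A12 between the arrays labelled TRIB3-shRNA and Control-shRNA on the log2 scale, with its 95% interval from limma, under the design used and 18 alternatives; red marks an adjusted p below 0.05, and the adjusted p is printed at the right. All estimates lie between 0.35 and 0.57, and the interval reaches below 0 when replicate 2 of either group is left out.

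Scaling changed the size of the SLC38A12 difference but not its sign. It was 0.51 after quantile normalization (adjusted p = 0.0606), 0.48 after centring each array on its median (adjusted p = 0.064) and 0.53 after centring on the 75th percentile (adjusted p = 0.055). The last of these moved the median difference of all genes from 0.04 to 0.14. Relative to the median of all genes, SLC38A12 was 0.39 higher on the deposited values, which centring cannot change, and 0.47 higher after quantile normalization. The share of higher genes among those called moved with scaling as well, from 33.7% (484 higher, 951 lower) to 50.8% with the 75th percentile (853 higher, 825 lower) and 44.6% with the median (659 higher, 818 lower).

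The genes beside SLC38A12 were examined for differences in the same direction, a comparison chosen after its values had been seen. The 5 nearest genes with a named feature on either side were taken in the order of the RefSeq table. On one side these were CD300LB, CD300C, CD300LD, CD300E and CD300LF, receptors of immune cells, and 0 of these 5 were called. On the other side were USH1G, OTOP2, OTOP3, HID1 and CDR2L. Of the 10 neighbours, 2 were called, where 9.64% of all genes were called in either direction. Both were higher, and 3.25% of all genes were called higher. The median difference of the 10 neighbours was 0.15, with a range from -0.40 to 0.84, beside a median of 0.04 for all genes.

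CDR2L was the neighbour with the widest difference: its log2 signal read 8.05, 8.13 and 7.99 under the TRIB3-shRNA label and 7.16, 7.20 and 7.28 under the control label. It was 0.84 higher (SE 0.12, limma adjusted p = 0.00614), kept its call under all 18 alternatives and was separated by 0.71 where SLC38A12 was separated by 0.14. OTOP3, a proton channel gene, was 0.54 higher (adjusted p = 0.0407), and 8 of 17 alternatives ended its call, with an adjusted p of up to 0.168 without Control-shRNA replicate 1. Its call was also lost without either of the other two control arrays, without TRIB3-shRNA replicate 1 or 2, and without both arrays numbered 3. USH1G was 0.37 higher with groups that did not overlap, but did not pass the test (adjusted p = 0.0959). HID1 ran the other way, 0.40 lower, with overlapping groups (adjusted p = 0.142). CD300C differed by -0.14 with groups that did not overlap, and did not pass the test either (limma adjusted p = 0.467). The remaining neighbours, CD300LB, CD300LD, CD300E, CD300LF and OTOP2, differed by 0.08 to 0.17 with overlapping groups. None of them passed the test (limma adjusted p from 0.535 to 0.732).

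**Figure D3:**
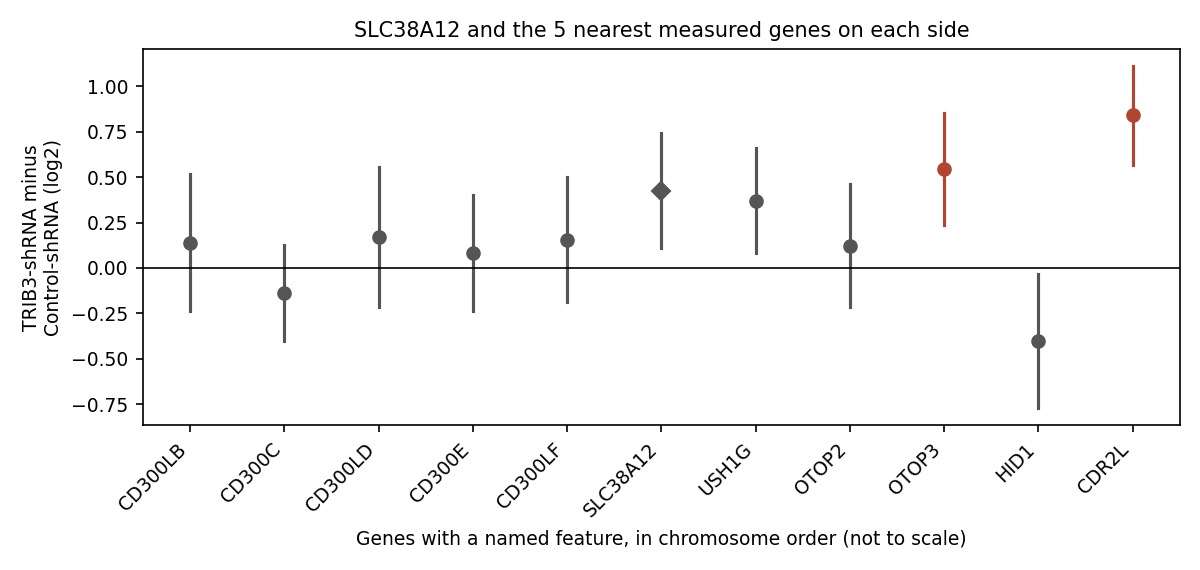
Difference between the arrays labelled TRIB3-shRNA and Control-shRNA on the log2 scale, with the 95% interval from limma, for SLC38A12 (diamond) and the 5 nearest genes with a named feature on each side, in chromosome order and not to scale; red marks an adjusted p below 0.05. Only CDR2L and OTOP3 were called among these 11 genes, both higher. HID1 and CD300C lay on the lower side, and all the others on the higher side. Among the latter, the intervals of CD300LB, CD300LD, CD300E, CD300LF and OTOP2 reached into negative differences.

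SLC38A12 was then set beside genes of amino acid handling from lists that do not hold it. Of 29 other amino acid and peptide carriers, 2 had a named feature. SLC66A1, a lysosomal exporter of cationic amino acids, had a log2 signal of 6.99, 7.06 and 6.83 under the TRIB3-shRNA label and 6.56, 6.27 and 6.58 under the control label. Its difference of 0.49 did not pass the test on the deposited values (adjusted p = 0.0594). SLC25A15, the mitochondrial ornithine carrier, differed by 0.32 (adjusted p = 0.117). Like SLC38A12, neither had overlapping groups and neither was called. Groups that did not overlap, with the arrays labelled TRIB3-shRNA higher, were found for 16.4% of all genes. With quantile normalization, median centring or 75th percentile centring, 1 of the 2 was called higher. Of all 14884 genes, 588, 659 and 853 were called higher under these scalings. With 2 genes, such counts cannot be set against the background as a share. Of 8 transporters known as ATF4 targets, 0 had a named feature.

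Among 16 measured genes of amino acid synthesis and glutamine use, 0 were called higher and 1 lower (6.25%, beside 6.39% of all genes called lower). That gene was ASNS, asparagine synthetase, an ATF4 target, with a log2 signal of 7.94, 7.88 and 8.02 under the TRIB3-shRNA label and 8.89, 9.01 and 8.86 under the control label. It fell by 0.97 log2 units (adjusted p = 0.00365). The list's median difference was -0.06 beside 0.04 for all genes. It was 0.03 beside 0.04 with quantile normalization and 0.05 beside 0.14 with centring by the 75th percentile, so its sign followed the scaling.

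Another list held 28 measured genes of amino acid sensing and control of the growth kinase complex mTORC1, its kinase MTOR among them. Of these, 1 was called higher and 2 lower (10.7%, beside 9.64% of all genes). The list's median was -0.15 beside 0.04 for all genes. It was -0.06 beside 0.04 with quantile normalization, -0.10 beside 0.09 with median centring and -0.05 beside 0.14 with the 75th percentile. RRAGD, a Rag GTPase that recruits the complex to lysosomes, rose by 0.58 (adjusted p = 0.0407). KICS2, a subunit that anchors the complex's inhibitor GATOR1, fell by 0.99 log2 units (adjusted p = 0.0295), and FNIP1, a partner of folliculin, by 0.82 (adjusted p = 0.0498). With median centring 1 was called lower, and with the 75th percentile 3 were. Among 7 measured partners and regulators of carriers, 1 was called higher and 1 lower (28.6%, beside 9.64% of all genes). SGK1, a kinase that promotes carriers at the cell surface, rose by 0.59 (adjusted p = 0.0373). ARL6IP5, a binding partner of a glutamate carrier, fell by 0.67 log2 units (adjusted p = 0.0212). SGK1 was dim, at group means of 4.30 and 3.71, so the size of its difference is not settled.

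Of 10 measured genes of the integrated stress response, the pathway through ATF4, 2 were called higher and 4 lower. The other 4 did not pass the test. Those called higher were ATF5 and TRIB3, the targeted gene, whose value was already known. Over all genes 3.25% were called higher and 6.39% lower. ATF4 itself had a mean log2 signal of 9.90 ± 0.05 (SD, n = 3) under the TRIB3-shRNA label and 10.03 ± 0.04 (SD, n = 3) under the control label. The groups of ATF4 did not overlap, with a gap of 0.04, but its difference of -0.13 did not pass (limma adjusted p = 0.481). Of its targets, ATF5 rose by 0.99 (adjusted p = 0.00553) together with TRIB3, and DDIT3 fell by 1.03 log2 units (adjusted p = 0.00367). The kinase genes EIF2AK2 (-1.16), EIF2AK3 (-1.04) and EIF2AK4 (-0.67) were lower, with adjusted p-values from 0.0142 to 0.0458; the last of them encodes the sensor of uncharged tRNA. Of the 12 genes called in these lists, ASNS, DDIT3, TRIB3 and ATF5 kept their calls under all alternatives that gave them a value, and the other 8 lost them under at least 1. All 8 lost them without Control-shRNA replicate 1 or 2, 7 of them without TRIB3-shRNA replicate 1 or 2, RRAGD and SGK1 without Control-shRNA replicate 3, and RRAGD without both arrays numbered 3. Quantile normalization ended the calls of SGK1, EIF2AK3 and FNIP1, and median centring that of FNIP1. Whether SLC38A12 differs from any of these lists was not tested.

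**Figure D4:**
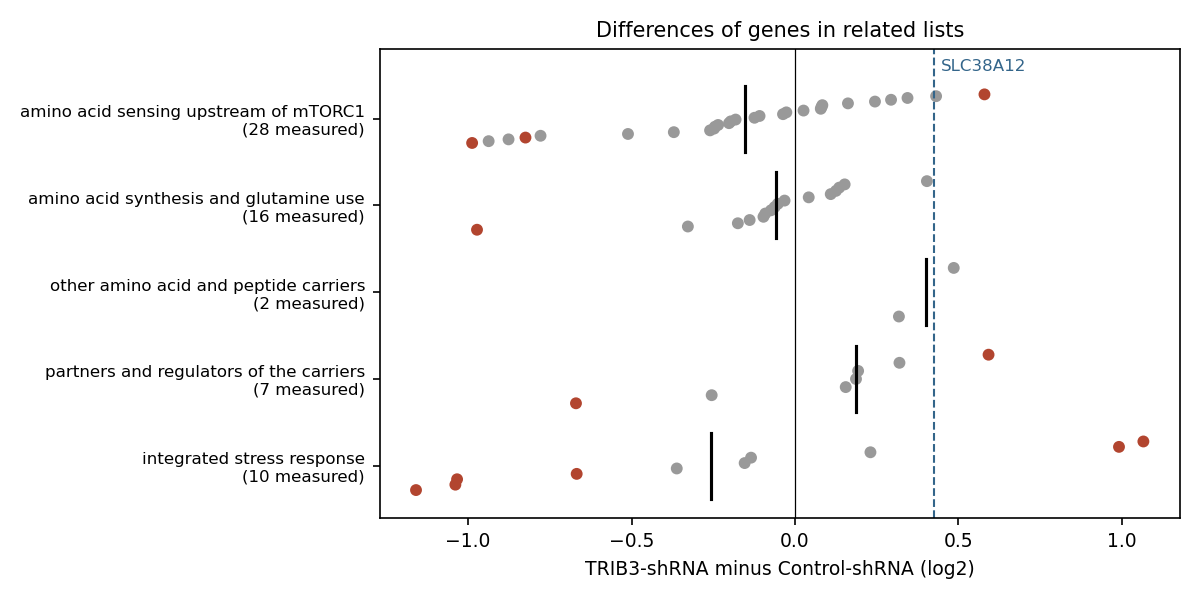
Differences between the arrays labelled TRIB3-shRNA and Control-shRNA on the log2 scale for each measured gene of 5 lists of amino acid handling and stress response; red points have a limma adjusted p below 0.05, black bars are list medians and the dashed line is SLC38A12 at 0.43. Called genes lie on both sides of 0 in all but the lists of amino acid synthesis, where ASNS is the only one, and of other carriers, where 0 of 2 were called.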

How the data were processed

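Per the submitters' processing notes, the authors made the deposited log2 signals with RMA (Affymetrix Expression Console 1.4.1), which removes background, equalises the arrays' quantiles and combines each feature's probes. That the scale is log2 was inferred from the range of values. Which genome build was used is not given in these sources. Of 53617 features, the annotation gave 1 gene symbol to 16098, several symbols to 0 and none to 37519. The brightest feature over all 6 arrays was kept for each of 779 genes with several, which left 14884 genes. The older symbol of SLC38A12 and the gene identifiers came from a RefSeq table of assembly GRCh38.p14, also used for gene order. Identifiers gave the same 1 transporter gene as symbols.

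Groups and replicate numbers came from sample titles. The test was limma's two-sided moderated test (version 3.58.1, R 4.3.3) with no term besides group, run on the deposited values with no filter. Genes were called at a Benjamini-Hochberg adjusted p of 0.05 over all genes. No pair of arrays shared over 0.127% of values. The steps were tested on simulated data, and the figures were drawn with Python 3.11.15. The rule for named genes took every transporter gene found, up to 6 called genes per related list with the smallest adjusted p, and TRIB3, ATF4, DDIT3 and ASNS whatever their p. The transporter genes and the lists were chosen with earlier results of these data known. Deviations of arrays with the same number did not correlate positively. Numbers were not treated as pairs, and the labels do not say whether they are. The number of arrays limits the precision.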

Additional observations from a re-analysis of the deposited data

How the results depend on the processing

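SLC38A12 stayed higher in the arrays labelled TRIB3-shRNA under all 18 alternatives and kept its side of the threshold under 14. It passed the test, making 1 transporter gene called higher in place of 0, with only genes above the median level (difference 0.43, adjusted p = 0.0428; fewer genes were tested), with array weights (0.51, adjusted p = 0.016) and, chosen after seeing the data, without both arrays numbered 3 (0.57, adjusted p = 0.0337). Leaving out single arrays gave differences of 0.35 to 0.52 and a count called higher of 0 to 1. Among these, SLC38A12 passed the test only without TRIB3-shRNA replicate 3 (0.52, limma adjusted p = 0.0408). The count called lower was 0 throughout. With the replicate number as a block the difference was 0.43 (adjusted p = 0.208). Correlations between deviations of same-numbered arrays ran from -0.43 to -0.09, and 0 of 6 arrays correlated best with their own number. Such correlations do not settle whether the numbers mark shared cultures or batches, so the block cannot be read as a pairing. Over all genes, 402 were called with the replicate block, 4099 with array weights, 3392 without both arrays numbered 3 and 199 to 2696 without single arrays, beside 1435; the cause was not tested. Of 12 called genes of the related lists, 7 lost their calls with the replicate block and 7 when all features were tested, as did OTOP3. TRIB3 kept its call under all 18 alternatives (0.97 to 1.20). No measure of signal over background was used.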
